A study of Mus musculus with 12 samples.

Results

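Orthochromatic erythroblasts (Ortho) were compared with proerythroblasts (Pro), the last and the earliest of the sorted erythroblast stages, gene by gene and by functional class. The comparison used 6 of the 12 libraries of the series, 3 of each stage. Its members were the genes that reached 1 FPKM in 3 or more of these 6 libraries, that is 12455 of the 29838 genes in the table. FPKM counts the sequenced fragments of a gene, scaled to the length of its transcript and to the size of the library. Of the genes tested, 2222 were placed in 57 classes by function, from hemoglobin synthesis to nuclear pore and mitochondrial translation.

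All cells came from the bone marrow of wild-type male C57/BL6 mice at 8 weeks of age, and no agent or altered allele was used. Cells bearing CD45 were first removed on magnetic beads, and live cells without CD45, CD11b and GR1 staining were then gated. Pro cells were taken as strongly CD44-positive and weakly Ter119-positive, and Ortho cells by CD44 against forward scatter among the Ter119-positive cells. Basophilic (Baso) and polychromatic (Poly) erythroblasts, the stages between them, entered the same model and give only the spread and the course. The labels do not say whether the 3 libraries of a stage came from separate mice, so the p-values measure the spread between these libraries. Of the Ortho libraries, replicates 2 and 3 carry a cell type label that names no stage and were assigned by their titles.

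Terminal erythropoiesis is a program in which a large, dividing precursor turns into a small cell filled with hemoglobin. Over a few divisions the chromatin condenses, the cytoplasm fills with globin, and the nucleus is finally expelled, which leaves a reticulocyte that clears its ribosomes and mitochondria. Ubiquitin ligases, the proteasome and autophagy are known to take part in this clearance, while heme and iron enzymes, the spectrin skeleton and glycolysis serve the red cell that remains.

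The stages were far apart. Pearson correlations of log2(FPKM + 1) across the genes tested were 0.973 to 0.982 within Pro, 0.982 to 0.984 within Ortho and 0.837 to 0.882 between them. Genes are not independent replicates, so these values only describe the libraries. The depth behind the FPKM values is unknown. Results are given on 2 scales. The 4 adult globin genes held 8.44% ± 1.95 of the summed FPKM in Pro and 49.6% ± 2.74 in Ortho (SD, n = 3), and FPKM is a share, so that the values of other genes fall as globin rises. On the first scale the values were left as deposited. On the second, 12 globin genes were left out and each library was rescaled to the same sum of the remaining FPKM.

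A call needed an adjusted p under 0.05 from limma and a difference of 1 or more, up or down, between the stage means of log2(FPKM + 1), Ortho minus Pro. As deposited, 812 genes were higher in Ortho (6.52% of those tested) and 3080 were lower (24.7%). Without globin, 1973 were higher (15.9%) and 1150 were lower (9.24%), out of 12447. Over all genes the median log2 fold change was -0.45 as deposited and -0.04 without globin, a shift that every class below shares. Rescaling each library to the same sum with globin kept in moved it further, to -0.76. The share of calls that were higher in Ortho was 20.9% as deposited and 63.2% without globin. No gene was called in opposite directions on the deposited scale and without globin. Leaving out globin shifts the genes of a library together, so that this was nearly fixed in advance. All 1150 genes lower without globin were lower as deposited, and all 805 genes outside globin that were higher as deposited were higher without it. The 3 Pro and 3 Ortho libraries did not overlap in 9761 genes (78.4%), and the smallest p of an exact permutation test on 3 and 3 libraries is 0.1.

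Function was read from genes that gave the same answer on both scales, which for a call amounts to the stricter scale in each direction. A gene was counted as gained when it was called higher on both (805 genes, 6.47%), as lost when it was called lower on both (1150 genes, 9.24%), and as kept when the 95% confidence interval of its fold change lay within 1 of zero on the log2 scale on both and it was called on neither (4473 genes, 35.9%). The remaining 6019 genes (48.4%) lay between, since they passed on a single scale or their interval reached past the bound. Of the 12455 genes, 392 were at 1 FPKM or more in every Pro library and under 1 in every Ortho library (3.15%), and 249 the reverse (2.0%). Leaving out the globin class, 25 classes had 0 gained members and 13 had 0 lost by limma. At an unadjusted p under 0.05 as deposited, 11 of the former still had no member higher in Ortho and the others had at most 4, and 5 of the latter had no member lower and the others at most 28. Kept genes were expressed at a low level, with a median of 8.94 FPKM in Pro, whereas lost genes had a median of 28.9 FPKM in Pro and gained genes of 19.6 FPKM in Ortho, and a log2(FPKM + 1) scale narrows the fold change of low genes. Because FPKM is relative, a fall here is a fall in share, and fewer cells that make a transcript cannot be told apart from less of it in each cell.

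The stage labels were checked against defining genes. Alas2 and Slc4a1, which mark erythroid cells, were at 265 FPKM or more in every one of the 6 libraries. Cd44, whose protein falls with maturation and was used to gate the stages, was at 29.6, 29.0 and 40.3 in the Pro libraries and 64.8, 48.3 and 51.5 in the Ortho libraries, so that each Ortho library was above each Pro library (log2 fold change 0.72 as deposited and 1.21 without globin). Ptprc, which encodes the CD45 gated against, was at 26.7, 30.3 and 23.6 in the Pro libraries and 63.9, 50.5 and 57.9 in the Ortho libraries and was called higher on both scales (1.07 as deposited and 1.55 without globin). As deposited, it was not called without Pro replicate 3 (0.98) or without Ortho replicate 1 (0.99). Transcripts of neutrophils, B cells and other white blood cells were found in both stages and were higher in Ortho, and their levels are given with the lysosome, actin and interferon-stimulated genes.

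**Figure D1:**
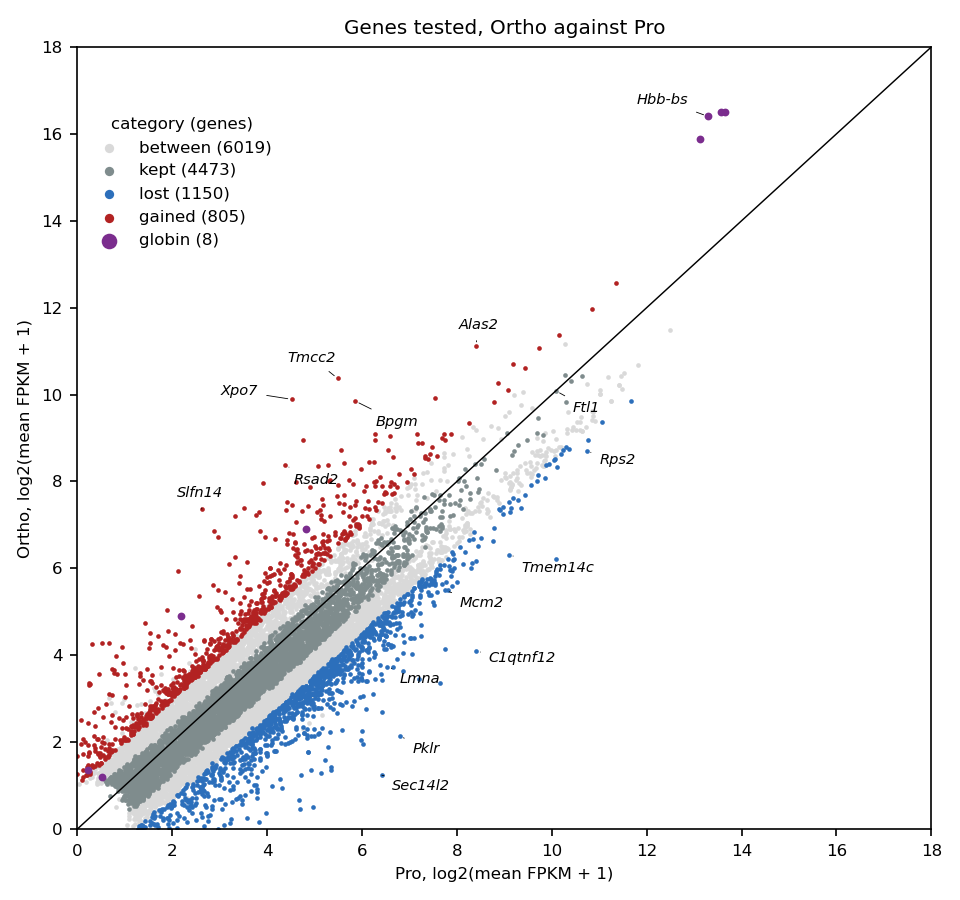
Each point is a gene tested, at its mean in 3 Pro libraries (x axis) and 3 Ortho libraries (y axis), both as log2(FPKM + 1) of the mean, with the line of equal level. Colours mark the 805 gained, 1150 lost, 4473 kept and 6019 remaining genes and the globin genes, and most of the cloud lies below the line as deposited.

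Apart from lists of marker genes of other cells, the classes with the largest shares of lost members were DNA replication (77.6%), purine and pyrimidine synthesis (44%), mitosis (40.6%), DNA repair (40.5%) and small nucleolar RNA genes (39.3%, or 38.8% without the 7 that entered through Pro alone). Shares kept were highest in zinc finger genes (66.1%), ER and coat proteins (63.8%), variant histones (55.6%), Rab GTPases (54.5%) and autophagy (53.8%). With the same lists set aside, the highest shares gained were in erythroid ubiquitin ligases (42.9%), the membrane skeleton (31.2%), autophagy (23.1%), interferon-stimulated genes (22.5%) and ubiquitin-conjugating enzymes (19.4%).

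The largest rises were in transcripts that were low or modest in Pro. Xpo7, the nuclear export receptor exportin 7 (chromosome 14, 70654246 to 70766628 on mm10), was measured at 18.6, 29.9 and 17.46 in the Pro libraries and 954, 935 and 956 in the Ortho libraries (FPKM). That is a 43.1-fold rise, with a log2 fold change of 5.41 (standard error 0.18, adjusted p 1.48e-09 from limma) as deposited and 5.89 without globin. Tmcc2, a transmembrane and coiled-coil protein (chromosome 1, 132356315 to 132391281), reached 1302, 1368 and 1308 FPKM from 39.6, 59.9 and 31.9. Slfn14, an endoribonuclease of the Schlafen family that acts on ribosomes (chromosome 11, 83275110 to 83286726), had 5.43, 6.74 and 3.35 in the Pro libraries and 161, 154 and 175 in the Ortho libraries, a 31.6-fold rise. Both stages were tight beside these differences. Genes with the largest rise were picked among those whose stages do not overlap. That no Pro library reached an Ortho library was therefore fixed by this choice.

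Other genes among the 10 with the largest rise were Fam46c, a noncanonical poly(A) polymerase (18.9-fold), Tcp11l2 (17.7-fold), Sowaha (18.2-fold) and Cd36, a scavenger receptor that takes up fatty acids (16.1-fold). Bpgm, which makes the bisphosphoglycerate that loosens the hold of hemoglobin on oxygen, and Rsad2, the interferon-induced viperin, complete the red cell and interferon sides of the list and are described with their classes. The remaining gene, Igkv6-32, is an immunoglobulin light chain segment of the B cell lineage and had 0, 0.225 and 0.478 in the Pro libraries and 24.6, 18.2 and 11.6 in the Ortho libraries, so that it entered the test through Ortho alone and had to differ. In Baso and Poly the means of Xpo7 were already 97.7 and 118 FPKM and those of Tmcc2 184 and 198, so that most of the gain in FPKM of both lay between Poly and Ortho.

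The largest falls were steep as well. Sec14l2, a lipid-binding protein (chromosome 11, 4097039 to 4123415), was at 73.8, 101 and 78.8 in the Pro libraries and 1.27, 1.23 and 1.59 in the Ortho libraries (FPKM), a 62.0-fold fall (log2 fold change -5.17, standard error 0.15, adjusted p 9.29e-10 from limma, and -4.77 without globin). Pklr, the pyruvate kinase of liver and red cells (chromosome 3, 89136142 to 89146784), had 111, 90.1 and 129 in the Pro libraries and 2.51, 3.55 and 4.19 in the Ortho libraries, a 32.2-fold fall. C1qtnf12, a secreted protein of the C1q and TNF family, had 377, 270.3 and 369 in the Pro libraries and 12.8, 17.9 and 17.3 in the Ortho libraries. All 3 Ortho values of each of these genes lay far under the lowest Pro value, but genes with overlapping stages were left out of this choice as well.

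The other genes of the 10 with the largest fall were Stard10, a lipid transfer protein (21.6-fold), the elastase Cela1 (22.5-fold), the membrane serine protease Hpn (25.3-fold) and Cited4, a partner of the CBP and p300 coactivators (19.6-fold), with Aldh1a7, an aldehyde dehydrogenase, Sh2d4a and Tac2, a tachykinin precursor. The last 3 were under 1 FPKM in every Ortho library and entered the test through Pro alone, so they had to differ. Hpn had a mean of 39.4 FPKM in Pro, 3.38 in Baso and 1.56 in Ortho, whereas Tac2 passed from 24.7 over 17.2 and 5.3 in Baso and Poly to 0.589.

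**Figure D2:**
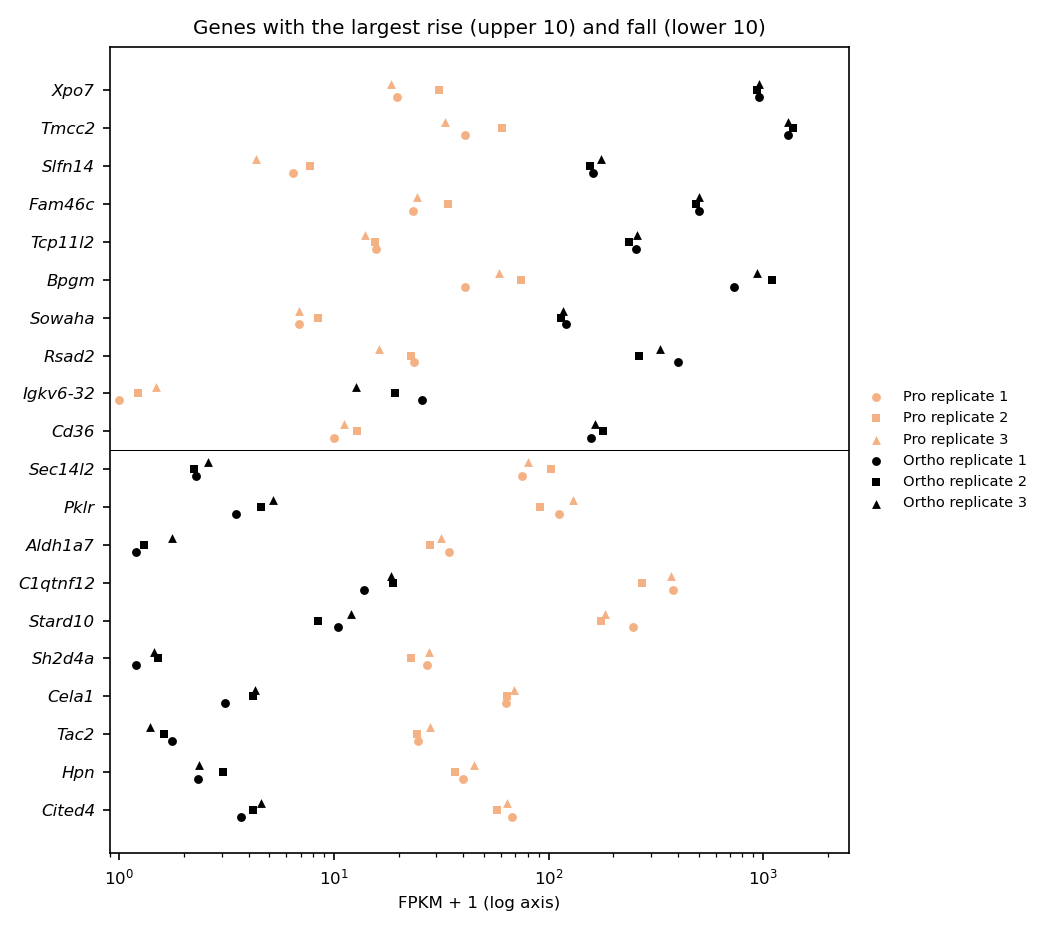
FPKM + 1 on a log axis in each of the 3 Pro and 3 Ortho libraries for the 10 genes with the largest rise and the 10 with the largest fall. Genes were chosen among those whose stages do not overlap, and Igkv6-32 is the most scattered among the risers.

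Adult globin transcripts were higher in Ortho and, being left out of the second scale, are given as deposited. Hbb-bs, an adult beta globin gene (chromosome 7, 103826534 to 103828096), was at 8225, 13138 and 8547 in the Pro libraries and 78381, 97264 and 84934 in the Ortho libraries (FPKM), and the 4 adult globin genes rose by 2.77 to 3.15 on the log2 scale as deposited. The alpha and the beta globin genes each come as a near-identical pair, which makes the split within a pair uncertain.

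The heme enzymes divided. Alas2, the first and rate-limiting enzyme of erythroid heme synthesis, had an FPKM of 317, 428 and 265 in the Pro libraries and 2044, 2376 and 2243 in the Ortho libraries, a 6.6-fold rise (log2 fold change 2.74, standard error 0.14, adjusted p 2.4e-08 from limma, and 3.24 without globin). Fech, which inserts the iron at the last step, rose 2.58-fold, from 211 ± 28.2 to 544 ± 25.1 FPKM (SD, n = 3). In contrast, Tmem14c, which carries a porphyrin intermediate in mitochondria, fell 6.98-fold, with 467, 606 and 567 in the Pro libraries and 68.3, 85.4 and 81.2 in the Ortho libraries. Alad and Cpox, enzymes of the early and late middle of the path, also fell, with log2 fold changes of -2.28 and -1.79 as deposited and -1.79 and -1.30 without globin. The 2 ends of the pathway were thus higher in Ortho and 3 members lower, with 2 of 13 kept. The class median was -0.78 as deposited and -0.32 without globin.

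The promoter of Alas2 is shown because this gene carries the rise of the heme path. The window of RefSeq on GRCm38.p6 spans 250 bases before to 50 after the start, at chrX:150547167-150547466 on the plus strand, and capitals mark AGATAA, the letters bound by GATA factors, and CCACNCCC, those bound by KLF factors, on either strand.
Alas2: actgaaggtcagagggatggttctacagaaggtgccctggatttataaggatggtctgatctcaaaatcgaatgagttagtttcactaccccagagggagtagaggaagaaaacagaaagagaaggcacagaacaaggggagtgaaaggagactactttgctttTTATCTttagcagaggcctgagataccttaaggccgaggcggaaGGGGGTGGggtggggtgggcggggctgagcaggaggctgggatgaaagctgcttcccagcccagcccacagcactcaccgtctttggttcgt

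The window held 1 match to each. Among all 27025 RefSeq promoters of this length, 11.4% held AGATAA and 17.6% held CCACNCCC. A match only describes the letters.

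Iron genes moved in both directions. The 5 lost members were Steap3, the endosomal ferrireductase (11.6-fold lower, 67.2 ± 19.0 to 5.77 ± 0.663 FPKM), the transferrin receptor family member Tfr2 (-2.95 on the log2 scale), the iron importer Slc11a2 (-2.12), Aco1, an iron-sensing RNA-binding protein (-1.94), and the iron exporter Slc40a1 (-1.53). The gained members were Ncoa4, the receptor that hands ferritin to autophagy, with 26.3, 40.3 and 34.7 in the Pro libraries and 122, 226 and 135 in the Ortho libraries, and Slc25a37, the mitochondrial iron importer mitoferrin 1, from 142 ± 29.7 to 543 ± 27.3 FPKM. Ftl1, the ferritin light chain, was kept: it had 1273, 997 and 991 in the Pro libraries and 1111, 1078 and 1067 in the Ortho libraries, with overlapping stages and a log2 fold change of 0.01 (adjusted p 0.95), which turned to -0.36 when libraries were rescaled to the same sum with globin kept in. The median of the class was -0.97 as deposited and -0.50 without globin.

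Of 16 genes of the membrane skeleton, 5 were gained, 4 were kept and 0 were lost. The 5 gained members (31.2%, against 6.47% of all genes) were Epb41, protein 4.1, which ties spectrin to actin, Slc4a1, the anion exchanger band 3, Tmod1, which caps actin filaments, Epb42, protein 4.2, and Mpp1, a membrane scaffold. Epb41 had 77.2, 105 and 47.8 in the Pro libraries and 557, 367 and 572 in the Ortho libraries, and Slc4a1 had 609, 709 and 427 in the Pro libraries and 1653, 1659 and 1705 in the Ortho libraries. Log2 fold changes of the 5 ranged from 1.07 to 2.73 as deposited. On the log2 scale the class had a median of 0.27 as deposited, 0.76 without globin and -0.09 after rescaling to the same sum.

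Among blood group and other surface proteins, 3 of 19 members were lost (15.8%), 1 gained (5.26%) and 8 kept (42.1%). The shares of all genes were 9.24%, 6.47% and 35.9%. Art4, which carries the Dombrock antigens, was gained (11.5 ± 0.995 to 45.2 ± 1.65 FPKM). The lost members were the nucleoside transporter Slc29a1, with 134, 132 and 141 in the Pro libraries and 20.1, 20.1 and 19.97 in the Ortho libraries, the water channel Aqp1 (-1.75 on the log2 scale as deposited) and Xk (-1.69).

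Regulators of the lineage went both ways. Of 27 erythroid transcription factors, 5 were lost (18.5%, against 9.24% of all genes), 4 gained (14.8%, against 6.47%) and 6 kept (22.2%, against 35.9%). The lost ones hold much of the core program: Gfi1b, a repressor (8.09-fold lower), Klf1, an activator of globin and membrane genes, Gata1, the master factor of the lineage, its cofactor Zfpm1, and Ldb1, which bridges GATA1 complexes. Klf1 had an FPKM of 346, 312 and 301 in the Pro libraries and 60.7, 73.5 and 73.6 in the Ortho libraries, and Gata1 had 142, 122 and 127 in the Pro libraries and 27.9, 31.9 and 33.1 in the Ortho libraries. The gained ones were Mafk and Mafg, the small MAF partners of NFE2, with log2 fold changes of 1.35 and 1.05 as deposited, Foxo3, a factor of late erythroid genes (45.2 ± 4.26 to 102 ± 6.08 FPKM), and Gata2 (13.0 to 27.4 FPKM). Gata2 lay just past the bound at 1.02 and was not called without Pro replicate 3 (0.91), Ortho replicate 1 (0.91) or Ortho replicate 2 (0.98). The class median was -0.14 as deposited, 0.35 without globin and -0.50 after rescaling to the same sum.

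In EPO and KIT signalling, 2 of 20 members were lost (10%), 2 gained (10%) and 6 kept (30%). These shares were near those of all genes (9.24%, 6.47% and 35.9%). Epor, the erythropoietin receptor, fell from 154, 144 and 148 FPKM to 46.0, 43.4 and 50.05 (log2 fold change -1.66 as deposited and -1.17 without globin), although its Baso and Poly means were 156 and 168. Gab1, a docking protein of the pathway, fell 12.3-fold. Pim1, a survival kinase, rose 4.02-fold with 42.9, 52.4 and 39.0 in the Pro libraries and 199.9, 175 and 165 in the Ortho libraries, and Pik3r1, a regulatory subunit of PI3 kinase, rose by 1.37 on the log2 scale. Kit, the receptor of stem cell factor that marks early progenitors, was kept, with 16.5, 15.3 and 21.6 in the Pro libraries and 13.4, 12.6 and 17.6 in the Ortho libraries and a log2 fold change of -0.28 (adjusted p 0.131) that was 0.18 without globin.

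**Figure D3:**
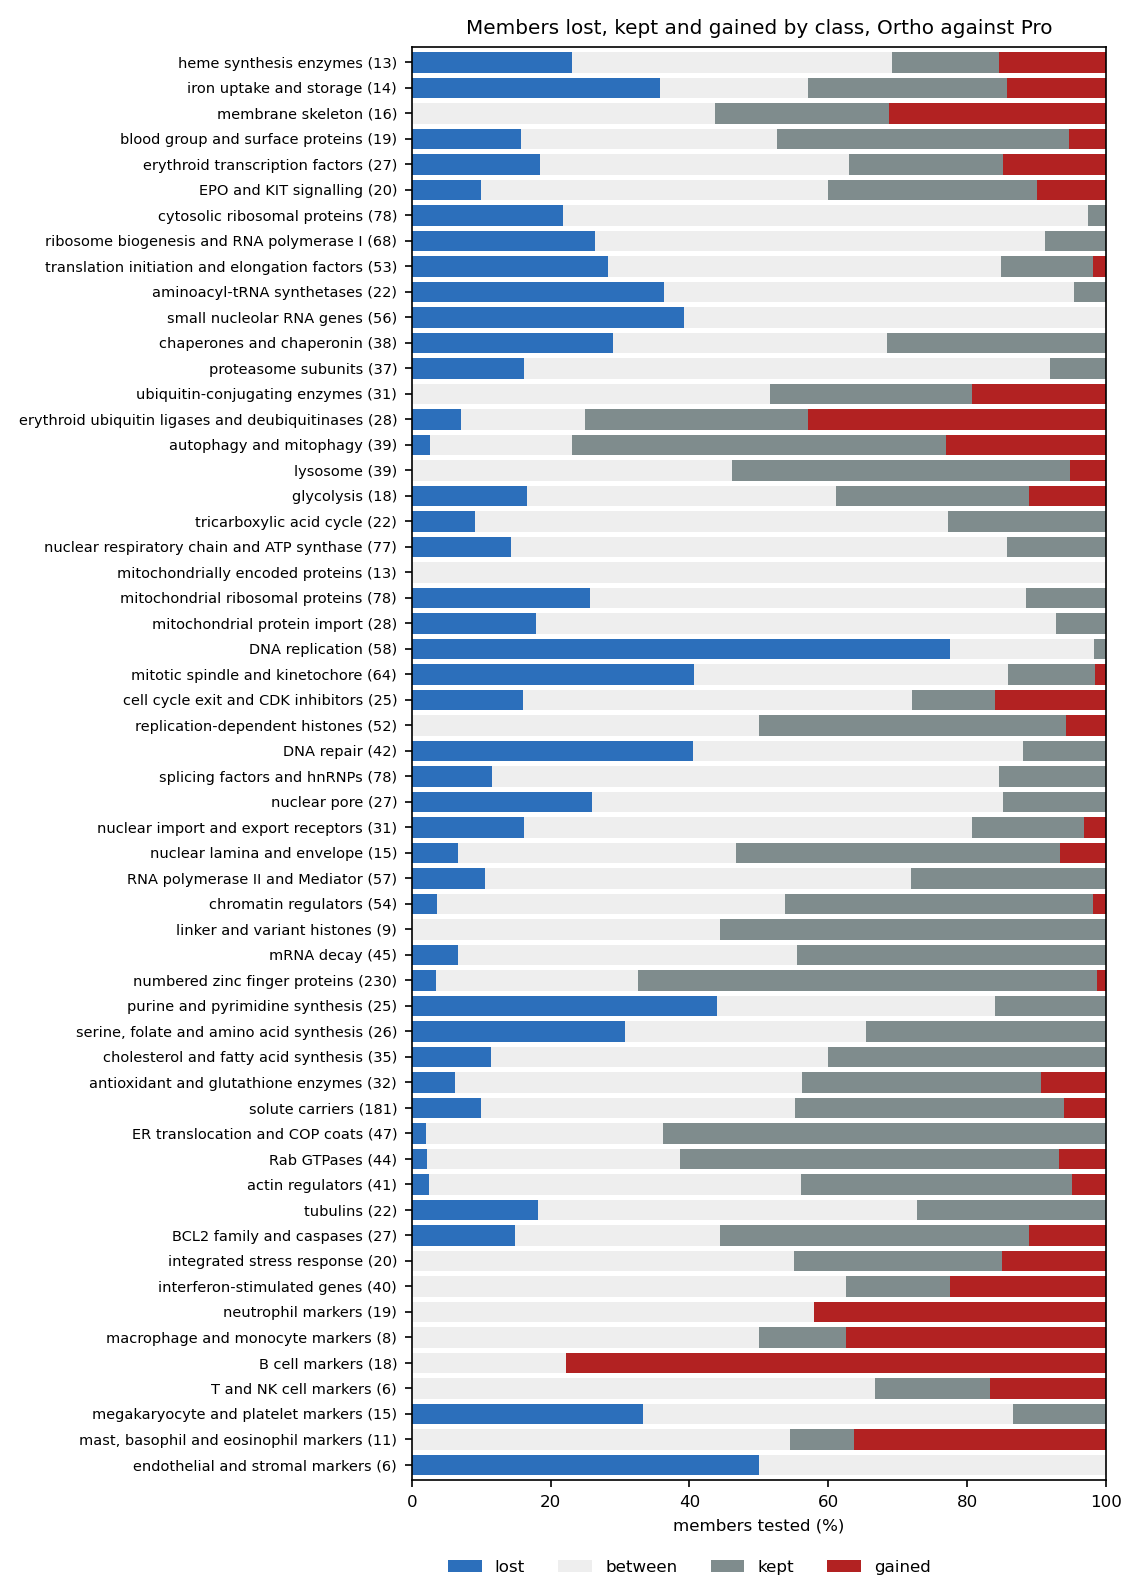
Bars give the percent of tested members of each class that were lost, between, kept or gained, with the number tested in parentheses. DNA replication has the highest share lost (77.6%), B cell markers and erythroid ubiquitin ligases have the highest shares gained (77.8% and 42.9%), and the zinc finger, ER and autophagy classes are mainly kept or between.

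DNA replication was the function most widely lost. Of 58 genes, 45 were lost (77.6%, against 9.24% of all genes), 0 were gained and 1 was kept, and the class median was -1.85 as deposited and -1.37 without globin. Cdc6, which loads the replicative helicase at origins, had 57.9, 99.1 and 91.4 in the Pro libraries and 16.03, 8.45 and 13.5 in the Ortho libraries. Mcm2, a subunit of that helicase, had 205, 222 and 218 in the Pro libraries and 43.9, 42.1 and 46.2 in the Ortho libraries, a 4.88-fold fall (log2 fold change -2.26, standard error 0.066, adjusted p 9.29e-10 from limma). Pcna, the sliding clamp, fell 3.93-fold, and Rrm2, a subunit of the enzyme that makes deoxyribonucleotides, fell 3.64-fold. No Ortho library reached the lowest Pro library in any of these 4 genes. The class held 1.22%, 1.34% and 1.4% in the Pro libraries and 0.459%, 0.461% and 0.477% in the Ortho libraries of the FPKM outside globin.

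Mitotic genes were lost in part. In the spindle and kinetochore class 26 of 64 members were lost, 1 gained and 8 kept, with a median of -1.32 as deposited and -0.84 without globin. Cenph, a kinetochore protein, fell 7.12-fold (68.3 ± 3.85 to 9.59 ± 0.769 FPKM), and Plk1, a kinase of mitotic entry and exit, had 76.4, 89.0 and 101 in the Pro libraries and 25.5, 22.3 and 29.3 in the Ortho libraries. Top2a, the topoisomerase of mitotic chromosomes, was called as deposited (-1.22) but not without globin (-0.73). Mki67, the Ki-67 antigen, was kept, with 207, 219.7 and 186 in the Pro libraries and 129, 109 and 136 in the Ortho libraries and -0.71 as deposited and -0.22 without globin. The gained member was Fzr1, the activator of the anaphase-promoting complex in late mitosis and G1, with 45.3, 50.6 and 48.4 in the Pro libraries and 205, 202 and 209 in the Ortho libraries. The course of this class was not a steady fall, since its share of FPKM outside globin was 1.03% ± 0.0845 in Pro, 1.73% ± 0.0806 and 1.67% ± 0.0164 in Baso and Poly, and 0.657% ± 0.0302 in Ortho (SD, n = 3).

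The promoters of Cdc6 and Plk1 are shown as examples of the replication and mitotic classes. Capitals mark TTCCCGC, letters bound by E2F factors, in Cdc6, and TTTGAA, the cell cycle homology region, and CCAAT, bound by NF-Y, in Plk1. CCAAT was also searched in Cdc6 and had 0 matches. The motifs were searched on either strand, in RefSeq windows on GRCm38.p6 at chr11:98907901-98908200 on the plus strand and chr7:122159185-122159484 on the plus strand.
Cdc6: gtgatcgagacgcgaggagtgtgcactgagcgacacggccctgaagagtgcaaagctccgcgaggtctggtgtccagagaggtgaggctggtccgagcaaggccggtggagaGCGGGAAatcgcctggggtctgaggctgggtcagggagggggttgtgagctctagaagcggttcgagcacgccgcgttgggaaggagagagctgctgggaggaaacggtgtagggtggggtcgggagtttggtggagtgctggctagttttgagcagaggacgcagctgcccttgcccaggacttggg
Plk1: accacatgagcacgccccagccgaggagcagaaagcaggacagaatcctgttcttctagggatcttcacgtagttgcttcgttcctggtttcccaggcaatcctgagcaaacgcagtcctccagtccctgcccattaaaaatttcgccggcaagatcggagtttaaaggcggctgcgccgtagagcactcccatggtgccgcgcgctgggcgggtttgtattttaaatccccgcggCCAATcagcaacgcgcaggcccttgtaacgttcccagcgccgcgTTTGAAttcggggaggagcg

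TTCCCGC was present in 19 of the 48 replication promoters found (39.6%, of 58 genes tested), in 9.09% of the 55 mitotic promoters and in 4.66% of all promoters. TTTGAA was present in 65.5% of mitotic promoters, 14.6% of replication promoters and 18.1% of all. CCAAT was present in 70.9%, 54.2% and 37.9%, respectively. Each motif was searched by itself on both strands, and the shares describe letters, with no test of binding.

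The class of cell cycle exit genes also lists cyclins, Cdk4 and E2f4, and its members went both ways. Of 25, 4 were gained (16%, against 6.47% of all genes), 4 lost (16%, against 9.24%) and 3 kept (12%, against 35.9%). Cdkn1b, the CDK inhibitor p27, had 14.6, 19.9 and 16.5 in the Pro libraries and 76.8, 139 and 86.3 in the Ortho libraries, a 5.94-fold rise, and Gadd45a, a growth arrest gene, had 81.2, 76.4 and 66.7 in the Pro libraries and 276, 243 and 246 in the Ortho libraries. Btg1 and Ccng2, which restrain proliferation, were gained at smaller size (both 1.11 on the log2 scale as deposited, and Btg1 0.99 and not called without Ortho replicate 1). Ccne1, cyclin E1, which drives entry into S phase, fell 8.52-fold, with 138, 129.9 and 126 in the Pro libraries and 14.5, 15.5 and 16.3 in the Ortho libraries. Ccnd3, cyclin D3, its kinase Cdk4 and the factor E2f4 fell, with log2 fold changes of -1.56, -1.70 and -1.73. Btg2, an antiproliferative gene, was 74.5 to 139 FPKM and missed the call as deposited (0.91), but passed it without Pro replicate 2 (1.06). The median of the class was -0.37 as deposited, 0.10 without globin and -0.72 after rescaling to the same sum.

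In DNA repair, 17 of 42 members were lost (40.5%, against 9.24% of all genes), 0 were gained and 5 were kept (11.9%, against 35.9%). Xrcc5, the Ku80 subunit that binds broken ends, fell 5.78-fold (11.6 ± 1.32 to 2.01 ± 0.464 FPKM). Of the 70 replication-dependent histone genes in the table, 52 were tested, 0 were lost, 3 were gained and 23 were kept, with a median of -0.43 as deposited and -0.09 without globin. The gained genes, all at low level, were Hist1h2bc (9.42 ± 2.8 to 25.9 ± 5.1 FPKM), Hist1h2bg (4.99 to 11.3) and Hist4h4 (0.379 to 1.79), of which Hist1h2bg was not called without Pro replicate 1 (0.81) and Hist4h4 without Ortho replicate 1 (0.99). Hist4h4 was under 1 FPKM in every Pro library and entered the test through Ortho alone. Hist1h4i had the largest fall (-1.47 as deposited and -0.99 without globin). These transcripts end without a poly(A) tail, so a library made from polyadenylated RNA holds little of them, and how RNA was selected is not given in the sources used here. The median FPKM of the class was 2.54 in Pro, and 12 members were called lower as deposited. With a pseudocount of 0.1 in place of 1, 5 were kept and 5 were lower on both scales. The numbers kept and lost in this class therefore rest largely on the scale.

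Ribosomal protein genes were lower in Ortho. The 78 cytosolic ribosomal protein genes included 0 gained, 17 lost (21.8%, against 9.24% of all genes) and 2 kept members. As deposited, 63 of them were called lower. The median was -1.29 as deposited and -0.80 without globin. Rps2, of the small subunit, fell 4.12-fold, with 1808, 1486 and 1818 in the Pro libraries and 422, 399.6 and 421 in the Ortho libraries. Rpl3, of the large subunit, had 1161, 1228 and 1376 in the Pro libraries and 404, 473 and 454 in the Ortho libraries and -1.497 as deposited and -1.004 without globin, and Rps6 was -1.41 as deposited and -0.91 without globin and was not called on the second scale. As a group they made up 15.9%, 16.1% and 16.8% in the Pro libraries and 8.76%, 9.2% and 9.55% in the Ortho libraries of the FPKM outside globin. Ribosomal protein genes have many processed copies elsewhere in the genome, and fragments shared with them make single values uncertain.

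Ribosome production was also lower. Of 68 genes of ribosome biogenesis and RNA polymerase I, 18 were lost (26.5%, against 9.24% of all genes), 0 were gained and 6 were kept. Nop56 and Fbl, core proteins of the particles that methylate ribosomal RNA, were both lower. Nop56 had 219, 200.4 and 238 in the Pro libraries and 58.8, 47.5 and 45.8 in the Ortho libraries. Fbl had 231, 147 and 186 in the Pro libraries and 60.9, 56.3 and 58.6 in the Ortho libraries. Ncl, nucleolin, fell 3.21-fold. Small nucleolar RNA genes, which guide these modifications, had 22 lost and 0 gained of 56 tested. Of these, 7 passed the filter through Pro alone, 3 of them lost, and without these 7 the count was 19 of 49. Snord68 had 16.2, 6.76 and 15.7 in the Pro libraries and 0.714, 0.333 and 1.41 in the Ortho libraries. Such genes are short and lie in introns of other genes, so their FPKM is uncertain. The share of the biogenesis class was 0.702% ± 0.0742 in Pro, 0.36% ± 0.016 and 0.349% ± 0.00947 in Baso and Poly, and 0.356% ± 0.0105 in Ortho, with similar means from Baso on.

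In the translation factor class, 15 of 53 members were lost (28.3%, against 9.24% of all genes), 1 gained (1.89%, against 6.47%) and 7 kept (13.2%, against 35.9%). Of 22 aminoacyl-tRNA synthetase genes 8 were lost (36.4%), 0 gained and 1 kept (4.55%). Hars, the histidyl-tRNA synthetase, fell 6.46-fold (129 ± 13.2 to 20.02 ± 1.23 FPKM), and Eef1e1, a scaffold of the synthetase complex, 4.94-fold. Eef1a1, which brings aminoacyl-tRNA to the ribosome and was the most abundant of those named here, had 3389, 3599.5 and 3898 in the Pro libraries and 1616, 1678 and 1651 in the Ortho libraries and -1.14 as deposited and -0.64 without globin. The gained member was Eif5, which triggers GTP hydrolysis at the start codon, with 137, 157 and 142 in the Pro libraries and 498, 464 and 459.7 in the Ortho libraries, a 3.27-fold rise.

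Protein folding genes were lost in part. Of 38 chaperone genes 11 were lost (28.9%, against 9.24% of all genes), 0 were gained and 12 were kept (31.6%, against 35.9%). Bag2, a cochaperone of HSP70, fell 5.49-fold. Hspa8 and Hsp90ab1, the constitutive HSC70 and HSP90, were called as deposited (-1.16 and -1.21) but not without globin (-0.67 and -0.72). Proteasome subunits had 6 lost (16.2%), 0 gained and 3 kept (8.11%) of 37. Psmd9, an assembly chaperone of the regulatory particle, fell 7.04-fold, and Psmb5, a catalytic subunit, was -1.20 as deposited and -0.71 without globin.

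Several genes listed as ubiquitin-conjugating enzymes were gained, and not all of the list act on ubiquitin itself. Of 31 ubiquitin-conjugating enzymes, 6 were gained (19.4%, against 6.47% of all genes), 0 were lost and 9 were kept. Ube2h had an FPKM of 15.04, 14.2 and 10.52 in the Pro libraries and 155, 149.5 and 162 in the Ortho libraries, an 11.8-fold rise (log2 fold change 3.47, standard error 0.13, adjusted p 2.45e-09 from limma). Ube2o, a combined conjugating enzyme and ligase that acts on ribosomes in reticulocytes, had 32.3, 37.9 and 28.2 in the Pro libraries and 339, 323 and 319.5 in the Ortho libraries. Ube2l6, the conjugating enzyme of the ubiquitin-like ISG15, had 77.7, 128 and 42.6 in the Pro libraries and 259, 289 and 267 in the Ortho libraries, and its lowest Ortho value was 259 against a highest Pro value of 128. Ube2b, Ube2r2 and Ube2f also rose, by 2.27, 1.61 and 1.04 on the log2 scale, and Ube2f was not called without Ortho replicate 3 (0.99).

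Ligases and deubiquitinases known from erythroid cells had the highest share of gained members among the classes of erythroid function, 12 of 28 (42.9%), with 2 lost and 9 kept. Trim58, a ligase of late erythroblasts that acts on dynein, had 13.9, 13.7 and 12.5 in the Pro libraries and 119.6, 110.4 and 115 in the Ortho libraries, an 8.61-fold rise. Fbxo30, Rnf11 and Dcaf12 rose by 2.94, 2.59 and 2.45 on the log2 scale, and Mkrn1 went from 185 ± 13.98 to 962 ± 33.9 FPKM. Ubb, which encodes ubiquitin itself, rose from 469 ± 82.2 to 1233 ± 58.2 FPKM. The lost members were Rnf187 (3.48-fold) and Klhdc3 (-1.51). On the log2 scale the class had a median of 0.58 as deposited, 1.04 without globin and 0.23 after rescaling to the same sum, and its share was 0.467%, 0.51% and 0.528% in the Pro libraries and 1.49%, 1.49% and 1.53% in the Ortho libraries. The members of this list were picked for their known part in late erythroblasts, so its direction is not independent evidence.

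Most autophagy genes were kept or gained. Of 39, 9 were gained, 21 were kept (53.8%, against 35.9% of all genes) and 1 was lost. Bnip3l, or NIX, the receptor through which reticulocytes clear mitochondria (chromosome 14, 66985239 to 67008877), had 43.5, 58.7 and 53.3 in the Pro libraries and 239.7, 295 and 246 in the Ortho libraries, a 5.02-fold rise. Gabarapl2, which decorates the autophagosome, had 37.4, 38.6 and 29.6 in the Pro libraries and 88.7, 103 and 101 in the Ortho libraries. Ulk1, the kinase that starts autophagy, and Pink1, which marks damaged mitochondria, rose by 1.69 and 1.50 on the log2 scale. Proteases of the same family parted, since Atg4a rose by 2.25 on that scale while Atg4b had 48.6, 58.5 and 49.8 in the Pro libraries and 13.9, 14.4 and 16.5 in the Ortho libraries and was lost. The class median was 0.07 as deposited, 0.53 without globin and -0.27 after rescaling to the same sum.

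Of 39 lysosome genes, 19 were kept (48.7%, against 35.9% of all genes), 18 lay between, 2 were gained and 0 were lost. Lamp1, a lysosomal membrane protein, had 114, 127 and 126 in the Pro libraries and 134, 126 and 123 in the Ortho libraries, with overlapping stages and 0.06 as deposited and 0.55 without globin, or -0.30 after rescaling to the same sum. The gained members were the cathepsins Ctss (37.8 ± 5.81 to 88.3 ± 3.35 FPKM) and Ctsh (29.8 ± 9.09 to 65.4 ± 10.1 FPKM), proteases that are abundant in myeloid cells, and Ctsh was not called without Pro replicate 1 (0.97 on the log2 scale). Neutrophil markers rose in the same libraries, with sums of 7991 to 9717 FPKM in Pro and 15438 to 19279.5 FPKM in Ortho, and their part in this result was not tested. The median of the class was 0.16 as deposited, 0.65 without globin and -0.20 after rescaling to the same sum.

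Single steps of glycolysis moved in opposite directions. Its 18 tested genes held 2 gained (11.1%, against 6.47% of all genes), 3 lost (16.7%, against 9.24%) and 5 kept members (27.8%, against 35.9%). Bpgm (chromosome 6, 34476207 to 34505613) had 39.8, 73.5 and 57.7 in the Pro libraries and 733, 1103 and 932 in the Ortho libraries, a 16.2-fold rise (log2 fold change 4.02, standard error 0.23, adjusted p 3.66e-08 from limma, 4.50 without globin), and Gpi1, the glucose phosphate isomerase, rose from 123 ± 44.9 to 251 ± 21.6 FPKM. Gpi1 was not called without Pro replicate 1 (0.92 on the log2 scale) or Pro replicate 2 (0.95). Against them stood Pklr, described above, and Pfkm, the muscle type of phosphofructokinase, with 70.6, 60.1 and 58.8 in the Pro libraries and 3.6, 3.96 and 3.78 in the Ortho libraries. Hk1, the hexokinase of red cells, fell from 131 ± 12.1 to 43.9 ± 1.03 FPKM. Gapdh, of the middle of the path, was kept, with 101, 145 and 154 in the Pro libraries and 123, 119 and 123 in the Ortho libraries (-0.11 as deposited and 0.38 without globin). On the log2 scale the class had a median of 0.13 as deposited, 0.62 without globin and -0.24 after rescaling to the same sum. Bpgm was the more abundant of the gained members, and the share of the class was 0.624% to 0.741% of FPKM outside globin in Ortho and 0.298% to 0.315% in Pro.

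For nuclear-encoded mitochondrial classes, the shares of lost members are set against the 9.24% of all genes. Among 22 genes of the tricarboxylic acid cycle, 2 were lost (9.09%), 0 gained and 5 kept, the lost ones being Cs, citrate synthase, with 115, 113 and 121 in the Pro libraries and 40.7, 39.1 and 39.5 in the Ortho libraries, and Idh3a (-1.75 as deposited and -1.28 without globin). In the nuclear-encoded respiratory chain and ATP synthase, 11 of 77 members were lost (14.3%), 0 gained and 11 kept. Ndufv1, of complex I, fell 4.03-fold, and Cox4i1, of complex IV, had 397, 331 and 337 in the Pro libraries and 159.9, 154 and 163 in the Ortho libraries and was called on the deposited scale alone (-1.15 as deposited and -0.66 without globin). Mitochondrial ribosomal proteins had 20 lost (25.6%), 0 gained and 9 kept of 78, with the largest fall in Mrpl52 (6.08-fold), and of 28 import genes 5 were lost (17.9%), 0 gained and 2 kept. As deposited, 15 of 22 cycle genes and 49 of 77 respiratory genes were called lower, against 24.7% of all genes. Class medians, as deposited and without globin, were -1.22 and -0.73 for the cycle and -1.21 and -0.72 for the respiratory chain. They were -1.21 and -0.75 for mitochondrial ribosomal proteins and -1.14 and -0.68 for import. Those of all genes were -0.45 and -0.04.

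None of the 13 proteins encoded by mitochondrial DNA was lost, gained or kept, by the rule on both scales, and 8 were called lower as deposited with limma, 0 without globin. mt-Co1 had 4005, 6342 and 6821 in the Pro libraries and 3047, 2555 and 2942 in the Ortho libraries, with -0.97 as deposited and -0.48 without globin. Pro replicate 1 was the lowest of its stage, and mt-Co1 was called lower without it (-1.21) and without Ortho replicate 1 (-1.02). mt-Nd1 was -1.49 as deposited and -0.99 without globin. The class made up 3.33%, 5.5% and 6.12% in the Pro libraries and 3.08%, 3.28% and 3.33% in the Ortho libraries of the FPKM outside globin.

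**Figure D4:**
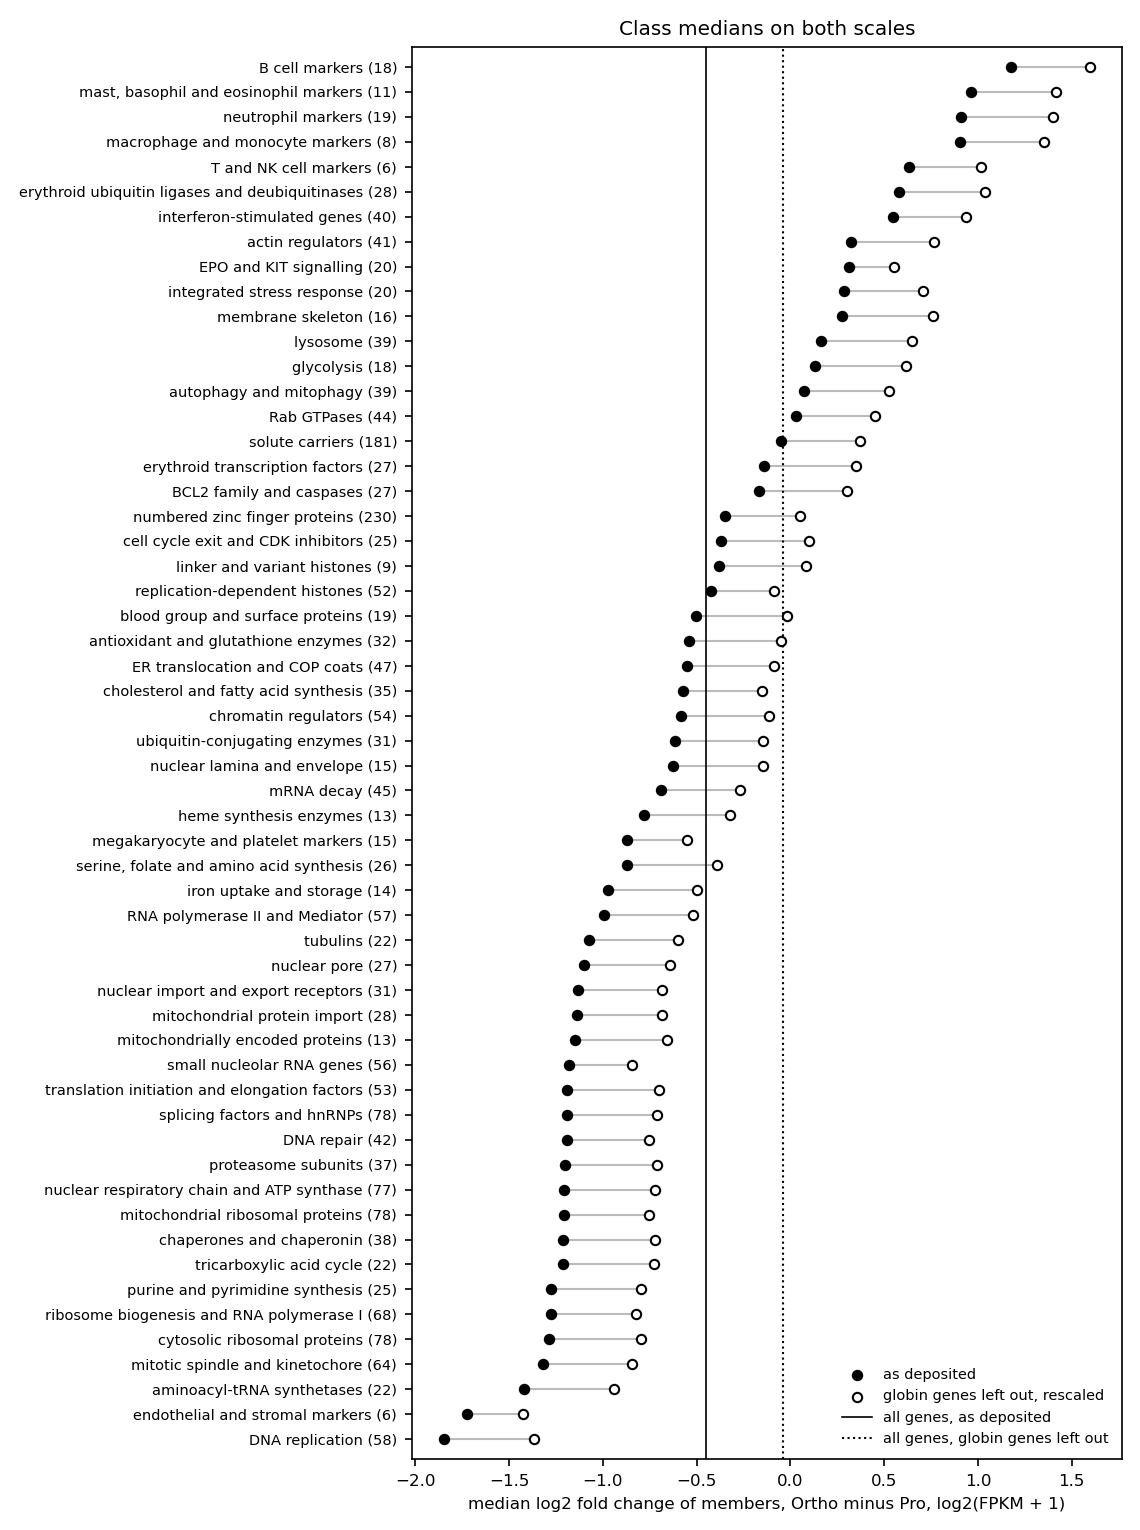
Median log2 fold change of the tested members of each class, Ortho minus Pro, as deposited (filled) and without globin (open), with the medians of all genes as lines at -0.45 and -0.04. Replication genes, the 6 endothelial and stromal markers and the synthetase, mitotic and ribosomal classes lie lowest as deposited, and marker lists of white blood cells, ubiquitin ligases and interferon-stimulated genes lie highest.

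In the nuclear machinery the shares of lost members are set against the 9.24% of all genes. Of 78 splicing genes 9 were lost (11.5%, near that share), 0 gained and 12 kept (15.4%, against 35.9% of all genes). As deposited, 56 of the 78 were called lower, against 24.7% of all genes. The class median was -1.19 as deposited and -0.71 without globin, against -0.45 and -0.04 for all genes. Hnrnpa1, which binds nascent transcripts, had 686, 462 and 581 in the Pro libraries and 203, 191 and 198 in the Ortho libraries, and Srsf3, an SR protein, was -1.15 as deposited and -0.66 without globin. In the nuclear pore, 7 of 27 members were lost (25.9%), 0 gained and 4 kept, and Nup85, of the scaffold, had 136, 117 and 119.9 in the Pro libraries and 27.9, 32.2 and 29.9 in the Ortho libraries. Of 31 import and export receptors 5 were lost (16.1%), namely Nutf2, Rcc1, Ran, Kpna2 and Ipo5, with log2 fold changes of -1.94 to -1.57 as deposited, and the gained member was Xpo7. Kpna2, an importin alpha, had 177, 144 and 174 in the Pro libraries and 48.0, 52.9 and 58.7 in the Ortho libraries. The share of FPKM outside globin was nevertheless higher in Ortho, 0.365%, 0.377% and 0.416% in the Pro libraries and 0.484%, 0.498% and 0.503% in the Ortho libraries. In Ortho the mean of Xpo7 was 948 FPKM against 101 for Ran, which powers this transport.

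At the nuclear lamina, Lmna, which encodes lamins A and C (chromosome 3, 88480147 to 88509956), fell 7.46-fold with 102, 85.0 and 88.9 in the Pro libraries and 11.8, 13.2 and 11.99 in the Ortho libraries, while Lmnb1, lamin B1, was kept with 171, 156 and 154 in the Pro libraries and 109, 99.1 and 108 in the Ortho libraries (-0.60 as deposited and -0.11 without globin). Syne2, a giant nesprin, was gained at low level (1.24 ± 0.545 to 5.31 ± 1.85 FPKM). In the class 1 of 15 members was lost (6.67%), 1 gained (6.67%) and 7 kept (46.7%). The shares of all genes were 9.24%, 6.47% and 35.9%, so those lost and gained were near them.

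Of 54 chromatin regulators 24 were kept (44.4%, against 35.9% of all genes), 2 were lost and 1 was gained. Ezh1, a methyltransferase of Polycomb complexes, was the gained member, with 6.74, 6.9 and 7.85 in the Pro libraries and 30.4, 29.0 and 33.5 in the Ortho libraries. Cbx5, the heterochromatin protein HP1 alpha, fell 3.33-fold, and Suv39h2, a histone methyltransferase, was at -1.43 on the log2 scale. Hdac2 was -1.40 as deposited and -0.92 without globin. In RNA polymerase II and Mediator, 6 of 57 members were lost (10.5%), 0 gained and 16 kept (28.1%, against 35.9% of all genes). Of 9 linker and variant histones 5 were kept, 0 lost and 0 gained.

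The 230 numbered zinc finger genes tested, of 355 in the table, had 152 kept (66.1%), 8 lost and 3 gained. They were low, with a median of 4.55 FPKM in Pro, and 90 were kept with a pseudocount of 0.1 in place of 1, so that this share rests partly on the scale. Of 45 mRNA decay genes 20 were kept (44.4%, against 35.9% of all genes), 3 were lost (6.67%, against 9.24%) and 0 were gained. The lost ones, Exosc7, Exosc2 and Dis3, are parts of the exosome and had log2 fold changes of -1.64, -1.59 and -1.51 as deposited.

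Nucleotide synthesis had the largest share of lost genes among the biosynthetic classes. Of 25 genes of purine and pyrimidine synthesis 11 were lost (44%, against 9.24% of all genes), 0 gained and 4 kept. Ppat, the first enzyme of purine synthesis, had 26.7, 24.2 and 27.6 in the Pro libraries and 6.32, 6.86 and 6.09 in the Ortho libraries, and Nme1, a nucleoside diphosphate kinase, fell 4.45-fold. In serine, folate and amino acid synthesis, 8 of 26 members were lost, 0 gained and 9 kept. Asns, asparagine synthetase, fell 7.65-fold with 88.9, 71.0 and 89.8 in the Pro libraries and 11.8, 7.44 and 13.4 in the Ortho libraries, whereas Phgdh, which opens serine synthesis, was kept with 37.0, 24.9 and 25.6 in the Pro libraries and 28.7, 28.5 and 28.3 in the Ortho libraries and -0.01 as deposited and 0.47 without globin. In cholesterol and fatty acid synthesis 4 of 35 members were lost (11.4%, near the share of all genes), 0 gained and 14 kept (40%, against 35.9%). The lost ones were the desaturases Fads2 (8.1-fold) and Fads1 (-1.79) and the sterol enzymes Sqle (-1.96) and Pmvk (-1.93), while Hmgcs1, which makes HMG-CoA, was not called and had 5.8, 6.76 and 5.08 in the Pro libraries and 8.49, 7.4 and 6.86 in the Ortho libraries.

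Of 32 antioxidant enzymes 2 were lost (6.25%), 3 gained (9.4%) and 11 kept (34.4%). These shares were near those of all genes (9.24%, 6.47% and 35.9%). Cat, catalase, had 33.6, 44.5 and 38.1 in the Pro libraries and 250.04, 257 and 263 in the Ortho libraries, a 6.63-fold rise (log2 fold change 2.71 as deposited and 3.19 without globin). Gpx1, glutathione peroxidase, rose from 159.6 ± 17.0 to 372 ± 29.4 FPKM, and Hmox1, heme oxygenase, from 4.05 ± 0.611 to 9.5 ± 0.225 FPKM, though not called without Pro replicate 1 (0.98 on the log2 scale). Sod1, the cytosolic superoxide dismutase, fell 3.28-fold with 724, 559 and 599 in the Pro libraries and 188, 191 and 194 in the Ortho libraries, and Gclc, of glutathione synthesis, fell from 90.4 ± 6.34 to 28.5 ± 1.09 FPKM. Prdx2, the abundant red cell peroxiredoxin, was kept with 939, 817 and 699 in the Pro libraries and 543, 550.3 and 571 in the Ortho libraries. Of 181 solute carriers tested 11 were gained (6.08%), 18 were lost (9.94%) and 70 were kept (38.7%), again near the shares of all genes. Among the solute carriers Slc39a8, a zinc and manganese importer, had the largest fall (25.3 ± 3.002 to 1.36 ± 0.198 FPKM).

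Secretion and trafficking genes had many kept members. In ER translocation and COP coats 30 of 47 were kept (63.8%, against 35.9%), 1 was lost (Sec61a2, -1.49) and 0 were gained. Sec61a1, the translocon channel, had 65.3, 66.7 and 62.2 in the Pro libraries and 49.6, 47.3 and 41.3 in the Ortho libraries and -0.49 as deposited and -0.0021 without globin. In the Rab GTPases 1 of 44 members was lost (2.27%, against 9.24% of all genes), 3 gained (6.82%, near the 6.47% of all genes) and 24 kept (54.5%). In the actin regulators 1 of 41 members was lost (2.44%), 2 gained (4.88%) and 16 kept (39.0%, near the share of all genes). Among the actin regulators, Tmsb10 and Tmsb4x, thymosins that bind actin monomers, rose from 213 ± 43.6 to 494 ± 30.3 FPKM and from 694 ± 198 to 1565 ± 352 FPKM, and the nonmuscle myosin Myh10 fell from 36.0 ± 3.96 to 10.98 ± 1.17 FPKM. Neutrophil markers (8 of 19 gained) summed to 7991 to 9717 FPKM in Pro and 15438 to 19279.5 FPKM in Ortho, and their part in the rise of the thymosins was not tested. Actb, beta actin, overlapped between the stages, with 523, 1224 and 556 in the Pro libraries and 1108, 657 and 694 in the Ortho libraries. Tubulins had 4 lost (18.2%, against 9.24% of all genes), 0 gained and 6 kept (27.3%, against 35.9%) of 22.

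In the BCL2 family and caspases, 4 of 27 members were lost (14.8%, against 9.24% of all genes), 3 gained (11.1%, against 6.47%) and 12 kept (44.4%, against 35.9%). Bcl2l1, the antiapoptotic BCL-XL (chromosome 2, 152780668 to 152831728), had 9.22, 19.7 and 9.08 in the Pro libraries and 152, 153 and 141 in the Ortho libraries, an 11.7-fold rise (log2 fold change 3.54, standard error 0.26, adjusted p 2.05e-07 from limma). Casp1, which activates inflammatory cytokines, and Birc3, an inhibitor of apoptosis, rose by 1.07 and 1.03 on the log2 scale, and Birc3 was not called without Ortho replicate 1 (0.97) or Ortho replicate 3 (0.97). Among the lost members, Casp6, Casp2 and Diablo, which unleashes caspases, had log2 fold changes of -1.54, -1.49 and -1.52. Of 20 genes of the integrated stress response 3 were gained (15%, against 6.47% of all genes), 0 lost and 6 kept (30%, against 35.9%). The gained genes were Ppp1r15a, which restores translation by dephosphorylating eIF2 alpha, with 98.5, 112 and 66.3 in the Pro libraries and 453, 409 and 409 in the Ortho libraries, Eif2ak1, the heme-regulated kinase of the same factor, with 59.5, 63.5 and 54.5 in the Pro libraries and 136, 124 and 128 in the Ortho libraries, and the stress gene Sesn1 (1.200 on the log2 scale). The class median was 0.29 as deposited, 0.71 without globin and -0.06 after rescaling to the same sum.

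Interferon-stimulated genes had 9 gained (22.5%, against 6.47% of all genes), 0 lost and 6 kept of 40. Rsad2, the antiviral enzyme viperin, had 22.5, 21.8 and 15.2 in the Pro libraries and 398, 263 and 330.2 in the Ortho libraries, a 16.6-fold rise (log2 fold change 3.99, standard error 0.22, adjusted p 3.1e-08 from limma). Isg15, the ubiquitin-like partner of Ube2l6, had 47.1, 22.4 and 17.4 in the Pro libraries and 278, 201 and 227 in the Ortho libraries, and Ifit1, which binds foreign RNA, had 1.47, 0.691 and 0.656 in the Pro libraries and 15.9, 11.3 and 12.3 in the Ortho libraries. Irf7 and Irf8, interferon regulatory factors, rose less, by 1.27 and 1.13 on the log2 scale, and Irf8 was not called without Pro replicate 3 (0.97). Neutrophil markers (8 of 19 gained) and B cell markers (14 of 18 gained) were higher in the same libraries, with sums of 15438 to 19279.5 and 1060.0 to 1377 FPKM in Ortho against 7991 to 9717 and 392 to 566 FPKM in Pro, and their part in this result was not tested. The median of the class was 0.55 as deposited, 0.94 without globin and 0.25 after rescaling to the same sum, and the share of FPKM outside globin was 0.305% ± 0.0273 in Pro, 0.49% ± 0.0537 and 0.526% ± 0.0509 in Baso and Poly, and 0.722% ± 0.0681 in Ortho (SD, n = 3).

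The Rsad2 promoter is shown for its match to the interferon-stimulated response element, searched as 2 copies of GAAA set 2 bases apart on either strand and marked in capitals, in the RefSeq window on GRCm38.p6 at chr12:26456403-26456702 on the minus strand.
Rsad2: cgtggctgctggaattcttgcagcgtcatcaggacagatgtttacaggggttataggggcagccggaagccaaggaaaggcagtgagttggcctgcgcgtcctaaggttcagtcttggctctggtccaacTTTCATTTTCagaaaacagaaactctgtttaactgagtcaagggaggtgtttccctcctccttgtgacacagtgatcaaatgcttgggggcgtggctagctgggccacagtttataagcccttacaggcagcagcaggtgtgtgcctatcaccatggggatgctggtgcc

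This motif was present in 15 of 34 promoters found for this class (44.1%) and in 3.49% of all promoters, and genes of the class are known for this element, so the share describes the list.

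Transcripts of other blood cells were present in both stages and higher in Ortho. Neutrophil markers summed to 7991 to 9717 FPKM in Pro and 15438 to 19279.5 FPKM in Ortho, all 19 were tested and 8 were gained, among them S100a8, with 1603, 1779.7 and 2167 in the Pro libraries and 4346, 3423 and 4246 in the Ortho libraries, and the collagenase Mmp8 (51.7 ± 9.52 to 146 ± 24.6 FPKM). B cell markers summed to 392 to 566 FPKM in Pro and 1060.0 to 1377 FPKM in Ortho, and 14 of 18 were gained, with Jchain, of secreted immunoglobulin, at 14.3, 13.5 and 22.2 in the Pro libraries and 90.8, 56.8 and 25.0 in the Ortho libraries. Macrophage and monocyte markers summed to 243 to 304 FPKM in Pro and 498 to 592 FPKM in Ortho, and 3 of the 8 tested were gained (Ccr2, Cd68 and Csf1r), while 9 of 19, including the defining C1qa, C1qb, C1qc, Mertk and Siglec1, were under 1 FPKM in all 6 libraries. Mast, basophil and eosinophil markers summed to 999 to 1269 FPKM in Pro and 1764 to 1955 FPKM in Ortho (4 of 11 gained), and T and NK cell markers to 28.9 to 43.1 FPKM in Pro and 54.3 to 60.5 FPKM in Ortho (1 of 6 gained), with Cd3d, Cd3e, Cd3g and Cd8a under 1 FPKM.

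Ly6g, an antigen bound by GR1 antibodies, had 20.8, 22.2 and 21.2 in the Pro libraries and 45.2, 40.9 and 49.3 in the Ortho libraries and was gained, but not called as deposited without Ortho replicate 3 (0.98). These white blood cell lists moved in the direction of the interferon-stimulated genes and of the gained lysosome and actin genes, and their part in those results was not tested. Other markers were lower in Ortho. Megakaryocyte and platelet markers, with 5 of 15 lost, summed to 103 to 172 FPKM in Pro and 71.8 to 86.6 FPKM in Ortho, and endothelial and stromal markers to 24.1 to 192 FPKM in Pro and 20.7 to 23.9 FPKM in Ortho. The stromal sum was highest in Pro replicate 2, where Col1a1, a collagen of bone, had 91.6 FPKM against 7.58 and 20.1 in the other Pro libraries. Ppbp, a platelet chemokine, fell from 26.4 ± 13.8 to 3.64 ± 2.19 FPKM and was not called without Pro replicate 2, Pro replicate 3 or Ortho replicate 1, with log2 fold changes of -2.32, -2.21 and -2.10. Without Pro replicate 2, the number of genes gained was 954 and the number lost was 1284, and 4032 were kept.

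The course through Baso and Poly is given as shares of FPKM outside globin. DNA replication had 1.32% ± 0.0942 in Pro, 1.13% ± 0.0817 and 0.902% ± 0.0169 in Baso and Poly, and 0.466% ± 0.00978 in Ortho (SD, n = 3). Ribosomal proteins had 16.3% ± 0.433 in Pro, 10.4% ± 0.852 and 8.58% ± 0.413 in Baso and Poly, and 9.17% ± 0.401 in Ortho. Heme enzymes had 0.671% ± 0.0656 in Pro, 1.38% ± 0.0224 and 1.17% ± 0.0281 in Baso and Poly, and 1.32% ± 0.107 in Ortho, and blood group and surface proteins had 0.583% ± 0.043 in Pro, 1.13% ± 0.0353 and 0.99% ± 0.0086 in Baso and Poly, and 0.625% ± 0.0267 in Ortho. Erythroid ubiquitin ligases had 0.502% ± 0.0314 in Pro, 0.98% ± 0.0706 and 0.909% ± 0.0179 in Baso and Poly, and 1.5% ± 0.0219 in Ortho, and autophagy genes had 0.186% ± 0.00899 in Pro, 0.275% ± 0.0136 and 0.267% ± 0.00499 in Baso and Poly, and 0.421% ± 0.0119 in Ortho. Glycolysis had 0.307% ± 0.00848 in Pro, 0.385% ± 0.022 and 0.443% ± 0.0102 in Baso and Poly, and 0.678% ± 0.059 in Ortho. The lamina class peaked in Poly at 0.317% ± 0.00525 and was 0.179% ± 0.00369 in Ortho. The libraries of Pro and Baso overlapped in DNA replication and in no other class of this paragraph, and single steps were not tested.

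**Figure D5:**
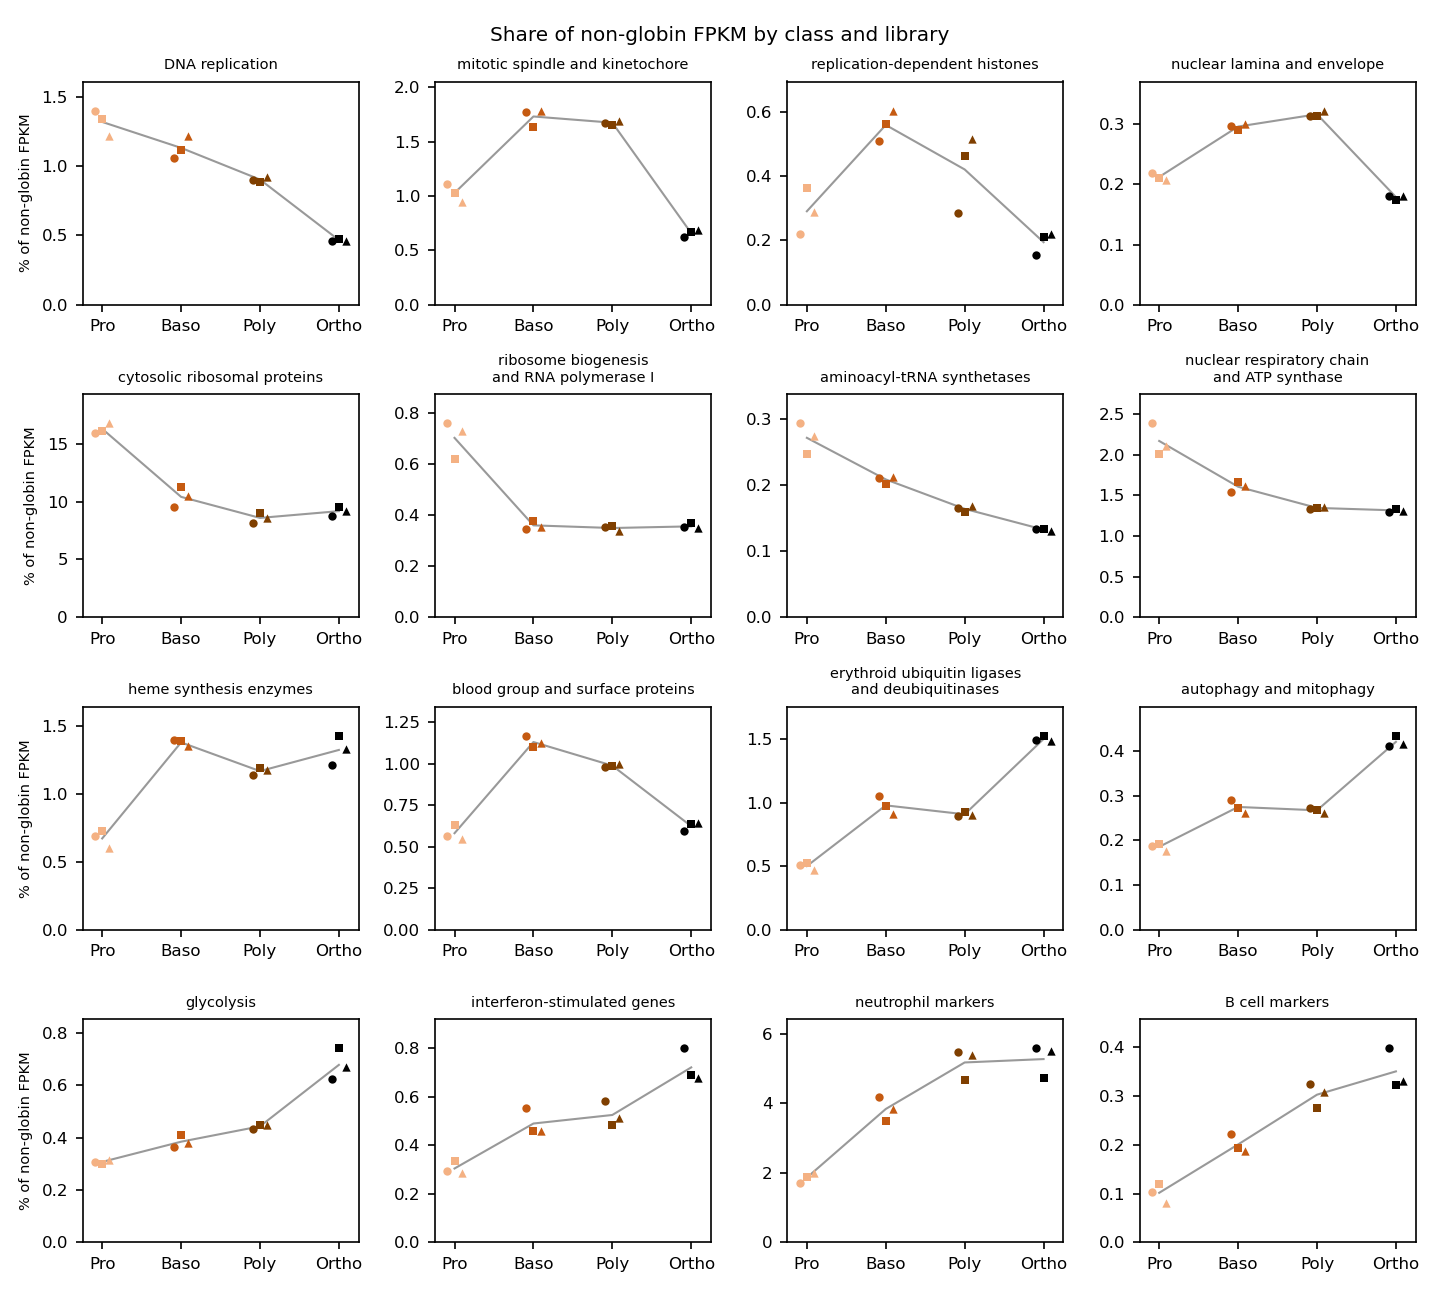
Share of FPKM outside globin (y axis, percent, from 0) in each library for 16 classes over the 4 stages, with circles, squares and triangles for replicates 1, 2 and 3 and the line through stage means. The mitotic, histone, lamina and surface protein classes peak in Baso or Poly, and the replication, ribosome and respiratory classes are highest in Pro. The mean of the heme class is also highest in Baso (1.38%), close to that in Ortho (1.32%).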

How the data were processed

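RNA from sorted erythroblasts was sequenced, and the authors deposited 1 table of FPKM values with 3 libraries for each of 4 stages. Per the labels and the processing notes, reads were trimmed with cutadapt and Trimmomatic, aligned to mm10 with HISAT2, handled with SAMtools and counted with featureCounts. The versions, the annotation, the use of strand and the step from counts to FPKM are not given in the sources used here. The labels and the study's methods name different library kits. The depth per library is unknown, and FPKM kept no steps of whole fragments (4.47% of 783 low genes fell in the most common bin), so no count model was used. A total of 0 columns could not be mapped to a sample, and 1 repeated gene identifier and 21 symbols turned into dates were resolved by identifier.

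Genes with at least 1 FPKM in at least 3 of the 6 Pro and Ortho libraries entered limma 3.58.1 (trend, R 4.3.3) on log2(FPKM + 1), with all 12 libraries in 1 model, no covariate, and Benjamini-Hochberg adjustment over the genes tested. The test was repeated after 12 globin genes were left out. Tables and figures were made in Python 3.11.15 with pandas 2.3.3 and matplotlib 3.10.9. The members, classes and lists were chosen with earlier results of these data known. Named genes were the 10 with the largest rise and fall (called on both scales, no overlap, mean of at least 10 FPKM in either stage), genes chosen by role, and the largest rise and fall in each class. Where few members of a class were called, or a gene is set beside them, genes outside this rule were named after their values were seen. Alternatives were another pseudocount, filter, scaling or threshold, a replicate block and leaving out each library. Promoters were those of RefSeq, the first listed for a gene. Some genes are not reported here.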

Additional observations from a re-analysis of the deposited data

How the results depend on the processing

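As deposited, leaving out each library in turn gave 714 to 961 genes higher and 2995 to 3235 lower, against 812 and 3080 with all libraries. Without globin the ranges were 1848 to 2095 higher and 1068 to 1284 lower, with 707 to 954 gained, 1068 to 1284 lost and 4032 to 4383 kept. A pseudocount of 0.1 raised the genes higher as deposited to 1323 and the gained genes to 1316. A pseudocount of 5 gave 351 higher and 1736 lower as deposited, 914 higher and 573 lower without globin, and 345 gained, 573 lost and 8133 kept. With no filter 20982 genes were kept, and with a mean of at least 5 FPKM 2822 were kept. Rescaling to the same sum with globin kept in gave 312 higher and 4836 lower, centring on the median gave 2077 higher and 1240 lower, and leaving out globin gave 1973 higher and 1150 lower. With the adjusted p alone and no bound on the fold change, 2872 genes were higher and 6829 lower as deposited, 4319 higher and 4484 lower without globin, and 2864 and 4484 on both scales.

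Direction changed for 6 genes that were not called. Leaving out 1 library moved the log2 fold change of Actb between -0.070 (Ortho replicate 1) and 0.56 (Pro replicate 2), with -0.051 and -0.0074 without Pro replicates 1 and 3, and it was -0.20 at the same sum. That of Ftl1 was -0.050 without Pro replicate 2, -0.054 without Pro replicate 3, -0.0097 without Ortho replicate 1 and -0.36 at the same sum. Gapdh was at 0.0088 without Pro replicate 3, and Phgdh at 0.17 without Pro replicate 1 and -0.11 without Pro replicate 2. Without globin and after centring on the median, Gapdh was at 0.38 and 0.30, Kit at 0.18 and 0.13, and Phgdh at 0.47 and 0.40. Lamp1 was at -0.30 at the same sum.

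Libraries share replicate numbers, and it is not known whether these numbers pair them. Same-numbered Pro and Ortho libraries correlated at 0.0545, 0.0741 and 0.0516 in their deviations from the stage means. Those with other numbers correlated at -0.0906 to 0.0309, so that each library correlated best with its own number, though weakly. With the replicate block there were 822 genes higher and 3083 lower as deposited, 1991 and 1149 without globin, and 815 gained, 1149 lost and 4574 kept, and 0 of 210 named genes changed their call. Leaving out a library changed the outcome of 24 of the 210. Among these, Actb, Ftl1, Gapdh and Phgdh turned in sign and were not called, and Ppbp lost its adjusted p. The unknown depth limits what can be said of genes near 1 FPKM.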
